A study of Mus musculus with 4 samples.

Results

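The WASP, WAVE, WASH and formin proteins and their partners decide where and when a cell builds actin filaments. A list of 47 genes of these families, given by name, was read from a table of 27179 Entrez gene IDs, and all 47 were found in it. All 47 had a mean of at least 10 normalized read counts and entered the test. The data were RNA sequencing of the mouse kidney medulla, the inner zone with Henle's loops and collecting ducts, at postnatal day 14. Of the 4 libraries, 2 came from animals labelled Actr3 WT, described as wild type control, and 2 from animals labelled Actr3 KO with the genotype Actr3-fl/fl*Cdh16-Cre, all on a strain given as C57BL/6 mixed. Cdh16 encodes the kidney-specific cadherin of tubule epithelium, so Cre is aimed at tubule cells, and the blood, vessel and stromal cells of the same piece of tissue are not its target. The labels name no allele or Cre transgene for the controls beyond wild type.

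Branched actin networks are built by the Arp2/3 complex, which needs an activator to start a branch. The activators that bind it through an acidic tail are WASP and N-WASP at the plasma membrane, the WAVE complex at protruding edges and cell junctions, the WASH complex on endosomes, and WHAMM and JMY. Formins instead build unbranched filaments and stay on the growing end, and the spire and cordon-bleu proteins nucleate through repeated actin-binding motifs. Actr3, the gene targeted here, encodes the Arp3 subunit of the Arp2/3 complex, so most of the listed activators act directly upstream of it. Several families hold one gene used mainly by blood cells and another used widely, including by epithelium: Was and Wasl, Nckap1l and Nckap1, Hcls1 and Cttn, Gmfg and Gmfb, Fmnl1 and Fmnl2. Wipf1 with Wipf2 and Abi3 with Abi1 were set beside them as pairs of the same kind, although Wipf1 and Abi3 are less restricted to blood cells.

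Promoters show that some of these pairs differ in sequence as well as in where they are used. The windows below run from 250 bases before to 50 bases after an annotated start (RefSeq, GRCm38.p6), printed 5′ to 3′ on the gene's strand with every CG dinucleotide in capitals. Was and Wasl, and Gmfg and Gmfb, are shown because they contrast most plainly, and Hcls1 because its CG count is near that of Was.
Was, chrX:8090442-8090741, minus strand: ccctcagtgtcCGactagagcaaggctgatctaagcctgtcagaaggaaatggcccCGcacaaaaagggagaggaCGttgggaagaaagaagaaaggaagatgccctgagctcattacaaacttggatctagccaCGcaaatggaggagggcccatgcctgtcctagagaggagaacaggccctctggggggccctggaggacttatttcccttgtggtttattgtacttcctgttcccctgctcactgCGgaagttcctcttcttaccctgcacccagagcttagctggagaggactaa
Wasl, chr6:24664946-24665245, minus strand: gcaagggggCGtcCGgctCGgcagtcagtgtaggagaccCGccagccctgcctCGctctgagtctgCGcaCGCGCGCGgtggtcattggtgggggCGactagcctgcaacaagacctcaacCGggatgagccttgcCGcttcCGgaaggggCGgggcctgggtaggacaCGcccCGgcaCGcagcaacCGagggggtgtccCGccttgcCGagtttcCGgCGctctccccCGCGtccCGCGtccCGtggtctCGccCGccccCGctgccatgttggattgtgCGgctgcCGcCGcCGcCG
Hcls1, chr16:36934733-36935032, plus strand: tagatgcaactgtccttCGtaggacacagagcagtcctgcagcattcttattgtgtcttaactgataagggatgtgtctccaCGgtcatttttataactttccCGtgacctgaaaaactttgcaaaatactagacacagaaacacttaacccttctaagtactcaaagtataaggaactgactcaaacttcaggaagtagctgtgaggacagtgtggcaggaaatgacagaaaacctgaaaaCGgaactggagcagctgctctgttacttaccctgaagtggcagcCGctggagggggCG
Gmfg, chr7:28437219-28437518, plus strand: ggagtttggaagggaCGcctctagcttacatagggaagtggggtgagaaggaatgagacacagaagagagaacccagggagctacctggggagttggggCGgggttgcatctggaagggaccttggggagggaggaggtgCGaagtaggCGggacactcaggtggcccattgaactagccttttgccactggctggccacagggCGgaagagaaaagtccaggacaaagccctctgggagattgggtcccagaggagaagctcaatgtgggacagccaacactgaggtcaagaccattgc
Gmfb, chr14:46822193-46822492, minus strand: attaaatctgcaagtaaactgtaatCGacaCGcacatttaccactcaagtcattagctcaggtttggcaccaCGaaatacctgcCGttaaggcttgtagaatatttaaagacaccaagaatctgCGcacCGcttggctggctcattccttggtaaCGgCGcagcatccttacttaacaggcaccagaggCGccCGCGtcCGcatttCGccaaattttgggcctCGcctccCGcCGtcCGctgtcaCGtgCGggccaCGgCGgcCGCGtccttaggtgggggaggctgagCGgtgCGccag

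The window of Was held 5 CG dinucleotides and that of Wasl 36, and those of Gmfg and Gmfb held 5 and 25 (a second annotated start of Gmfg had 1). Hcls1 had 6. Over all 32851 promoter windows of this length the median was 7. Fmnl1 went against this pattern with 43, close to the 49 of its paralog Fmnl2, and of the 3 annotated starts of Wipf1 1 had 37 and the others 4 and 1. Among the widespread paralogs Abi1 had the fewest, 12 and 10 at its annotated starts, not far above that median. A search of both strands for GAGGAAGT, a binding motif of PU.1, the transcription factor of myeloid cells, found it in 1 of the 37 members with a promoter window. That member was Fmnl1, where the match on the opposite strand begins 50 bases before the start, cctgcaaccctACTTCCTCcccgagcctcg, with the match in capitals. The motif was present in 3.2% of all windows, and a match is a description of the letters only. Windows were found for 5 of the 7 blood-lineage members, and Nckap1l and Abi3 were not among them. Of the 7 widespread paralogs 5 had a window and Nckap1 and Cttn had none, so Hcls1 could not be set beside its paralog.

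The libraries were deep and each group held 2. Reads recovered from the table numbered 36482238 to 40784436 per library, and the members had between 84 and 27078 reads in any 1 library. Across genes, log2 values correlated at r = 0.989 between the WT-labelled libraries, at 0.99 between the KO-labelled ones and at most at 0.916 across groups, although genes do not count as replicates. Actr3 itself stood higher where the label says KO, with normalized counts of 8065 and 7275 against 12587 and 12480 (log2 difference 0.71, SE 0.082, limma adjusted p = 0.000494). A count over the whole gene includes exons that Cre leaves in place, so it checks neither the deletion nor the labels. The groups are therefore called WT-labelled and KO-labelled, and every direction below rests on those labels. Tubule markers were detected in all libraries. Slc12a1, the salt cotransporter of the thick ascending limb, read 239881 and 241824 in the WT-labelled libraries. It read 39222 and 28751 in the KO-labelled ones, 7.09-fold lower in the means. Umod, another gene of that segment, overlapped between groups at 136828 and 143709 against 203680 and 138033.

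In the KO-labelled medulla 15 of the 47 members were higher, 10 were lower and 22 did not pass the threshold (limma, adjusted p under 0.05 over 16253 genes). The 25 called members are 53.2% of the list, and 51.2% of all genes tested were called, 26.3% higher and 24.9% lower, so the share called is near that of genes in general. The median log2 difference (KO-labelled minus WT-labelled, on log2(normalized count + 1)) was 0.07 for the members and 0.00 for all genes tested, and the median of its size without sign was 0.30 against 0.41. Differences of at least 1 on that scale were seen in 4 members that rose and 3 that fell, against 10.7% and 9.45% of all genes. The 4 were Nckap1l, Was, Hcls1 and Gmfg, each a blood-lineage gene, and the 3 were Cyfip2, Cobll1 and Daam2. The values of the 2 groups did not overlap for 32 of 47 members, 18 of them with KO-labelled values above and 14 below, and over all genes tested this held for 78.5%, 39.8% above and 38.7% below. Of the 25 calls, 13 had a log2 difference under 0.5 in size.

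**Figure D1:**
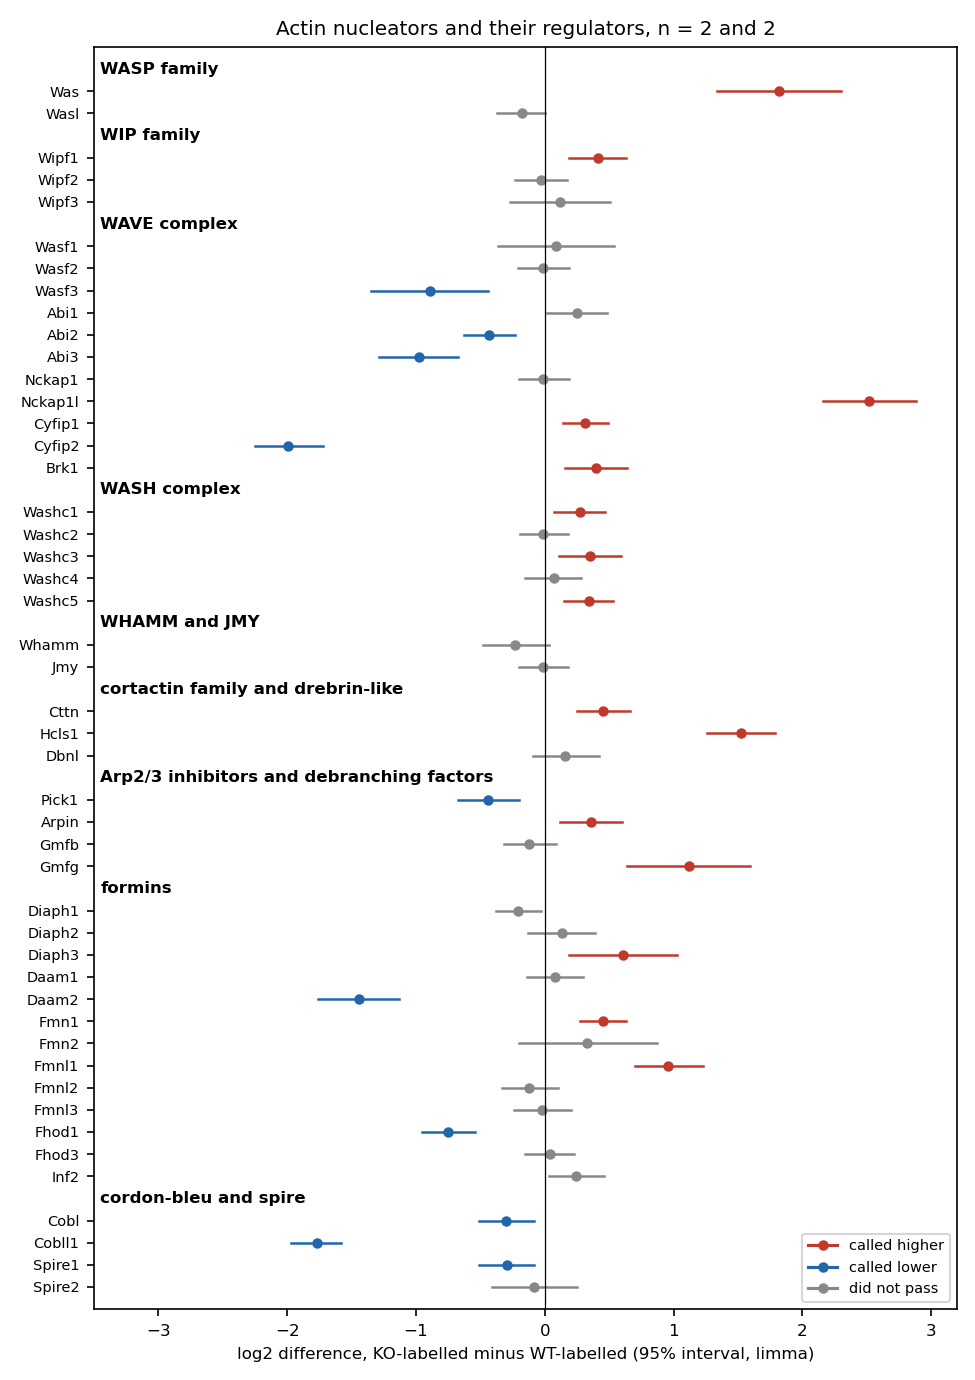
Log2 difference between KO-labelled and WT-labelled libraries on the x axis for each of the 47 members, grouped by role, with the 95% interval of the limma fit as a line (n = 2 and 2). Nckap1l at 2.52 and Cyfip2 at -1.99 are the ends of the range, and 22 members in grey did not pass the threshold.

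Within the WASP family the blood-cell gene rose and the widespread gene did not pass the threshold. Was, which encodes WASP, the activator of blood cells that is missing in Wiskott-Aldrich syndrome, had normalized counts of 106.4 and 83.49 in WT-labelled medulla and of 356.1 and 315.6 in KO-labelled medulla. Both KO-labelled values lay above both others, and the means of 94.93 ± 16.2 and 335.9 ± 28.6 (SD, n = 2) differ 3.54-fold (log2 difference 1.82, SE 0.20, limma adjusted p = 0.000443). Wasl encodes N-WASP, the form that epithelial cells use. It read 8797 and 8223 against 7642 and 7350, lower in both KO-labelled libraries but short of the threshold (log2 difference -0.18, 95% interval -0.37 to 0.00, adjusted p = 0.087). Among the WIP proteins, which bind and stabilise WASP and N-WASP, Wipf1 rose from 2433 and 2138 to 2988 and 3085 (log2 difference 0.41, SE 0.092, adjusted p = 0.00889). Wipf2 read 2153 and 2040 against 2099 and 2009, with overlapping groups and an interval from -0.23 to 0.17. The scarcer Wipf3 also overlapped (log2 difference 0.12).

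Genes of the WAVE complex went in both directions. The complex is made of one WAVE protein, one ABI, one NCKAP, one CYFIP and Brk1, and it links the GTPase Rac to Arp2/3. Of its 11 genes 3 rose, 4 fell and 4 did not pass. Cyfip2, a Rac-binding subunit, was among the most abundant members per transcript length in the WT-labelled medulla and had the deepest fall of the whole list. Its counts were 24828 and 26915 in the WT-labelled libraries and 7213 and 5890 in the KO-labelled ones. The KO-labelled libraries were far below, at means of 25872 ± 1480 and 6552 ± 935 (SD, n = 2), a 3.95-fold fall (log2 difference -1.99, SE 0.11, limma adjusted p = 2.72e-05; chromosome 11, 46193849 to 46312859, GRCm38). Its paralog Cyfip1, which fills the same place in the complex, went the other way, from 5683 and 5518 to 7083 and 6837. That rise, a log2 difference of 0.31 (adjusted p = 0.0108), did not pass without KO replicate 1 (0.0779) or in the fit lacking a variance trend (0.0536). The exons of Cyfip1 share 11.02% of their bases with Nipa2 on the opposite strand, which read 1553 and 1512 against 1816 and 1578.

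Nckap1l, the blood-cell NCKAP subunit known as HEM1, had the largest rise of the list. It went from 354.6 and 278.3 to 1686 and 1941, a 5.73-fold difference of means (log2 difference 2.52, SE 0.15, limma adjusted p = 3.45e-05; chromosome 15, 103453783 to 103502860, GRCm38). Nckap1, the widespread subunit, was level at 11582 and 10379 against 11017 and 10825, with a 95% interval of -0.20 to 0.19. The main WAVE gene behaved likewise: Wasf2, which encodes WAVE2, read 4849 and 5345 against 5246 and 4896 (log2 difference -0.01, interval -0.21 to 0.19). Wasf3, which encodes WAVE3, fell from 609.7 and 673.9 to 287.4 and 414.5 (log2 difference -0.89, SE 0.19, adjusted p = 0.00782), which missed the threshold once WT replicate 2 was left out (0.0511). Wasf1, known from brain, overlapped between groups at 305.3 and 383.7 against 321.8 and 412.7. Brk1, the smallest subunit, rose from 3742 and 4336 to 5627 and 5022 (log2 difference 0.40, adjusted p = 0.0151), and lost its call without WT replicate 1 (0.075), without KO replicate 1 (0.0873) and with no variance trend (0.0735).

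The 3 ABI genes, whose proteins bridge the WAVE complex to kinases, went apart. Abi1 read 5055 and 4260 against 5501 and 5554, higher in both KO-labelled libraries but short of the threshold (log2 difference 0.25, limma adjusted p = 0.0663). It passed without WT replicate 1 (0.0204), with scaling by total reads (0.0417) and after quantile normalization (0.0438). Abi2 fell from 3827 and 3545 to 2644 and 2836 (log2 difference -0.43, SE 0.084, adjusted p = 0.00535). Abi3 fell from 624.5 and 607.3 to 322.8 and 299.6 (log2 difference -0.98, SE 0.13, adjusted p = 0.000948), against the direction of the other 6 blood-lineage members. Its count is uncertain, because 70.1% of its exon bases overlap exons of Zfp652 and 41.1% those of Phospho1, both on the opposite strand (GENCODE M21), and the strand setting of the counting is not given in the sources used here. Zfp652 read 1294 and 1180 against 966.4 and 1062 and did not pass (log2 difference -0.29). Phospho1 fell from 81.75 and 83.49 to 21.45 and 24.5.

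The calls made among the WASH subunits were small rises. The WASH complex drives branched actin on endosomes that sort receptors back to the cell surface. Of its 5 genes 3 rose, none fell and 2 did not pass, where 26.3% of all genes tested were higher and 24.9% lower. With 5 genes, a trend of the complex cannot be told from these shares. Washc5, which encodes strumpellin, read 3439 and 3146 against 4221 and 4114 (log2 difference 0.34, SE 0.081, limma adjusted p = 0.0118). Washc3 read 926.8 and 967.1 against 1262 and 1152, and Washc1, the Arp2/3-binding subunit, 1549 and 1515 against 1815 and 1883, with log2 differences of 0.35 and 0.27 (adjusted p = 0.026 and 0.0334). In all 3 the KO-labelled values lay above the others, by at most 1.27-fold in the means. These calls were fragile: Washc1 lost its call on leaving out any 1 of the 4 libraries (adjusted p = 0.0745 to 0.164). Washc3 lost it without WT replicate 1 (0.0947), WT replicate 2 (0.0589) or KO replicate 1 (0.161), and Washc5 without WT replicate 2 (0.0524) or KO replicate 1 (0.0667). With no variance trend none of the 3 was called (adjusted p = 0.0731 for Washc1, 0.056 for Washc3 and 0.056 for Washc5). Washc2, the subunit that tethers the complex to endosomes, read 4887 and 4544 against 4671 and 4716, and Washc4 read 3141 and 2887 against 2994 and 3318, both with overlapping groups. Whamm, which acts on membranes between the endoplasmic reticulum and the Golgi, had a log2 difference of -0.23 (adjusted p = 0.117), and Jmy, which can also nucleate unbranched filaments, one of -0.01 (adjusted p = 0.907).

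Both cortactin family genes rose. Cortactin binds Arp2/3 at branch points and steadies them, and its gene Cttn rose from 9221 and 9803 to 13705 and 12382. The groups were well apart, with means of 9512 ± 411 and 13044 ± 935 (SD, n = 2; log2 difference 0.45, SE 0.085, limma adjusted p = 0.00433). Hcls1, the blood-cell cortactin known as HS1, rose more, from 366.4 and 361.8 to 1062 and 1037 (2.88-fold, log2 difference 1.52, SE 0.11, adjusted p = 7.86e-05). Dbnl, an actin-binding adaptor of the drebrin kind, overlapped at 2777 and 3194 against 3586 and 3103.

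Genes that restrain Arp2/3 or take branches apart had no common direction. Arpin, an inhibitor that competes with the activators' tails, rose from 1660 and 1899 to 2383 and 2172 (log2 difference 0.36, limma adjusted p = 0.0236). That call was lost without WT replicate 1 (0.107), without KO replicate 1 (0.13) and with no variance trend (0.0803). Pick1, whose product has been described as an Arp2/3 inhibitor, fell from 1472 and 1638 to 1165 and 1131 (log2 difference -0.44, adjusted p = 0.00928), and just missed the threshold without WT replicate 2 (0.05). Its count is uncertain, as 18.59% of its exon bases are shared with Gm49486 on the same strand. Gmfb encodes the widespread debranching factor. It read 8647 and 7640 against 7375 and 7628, lower in both KO-labelled libraries by a margin that did not pass (log2 difference -0.12, interval -0.32 to 0.09). Gmfg, its blood-cell counterpart, rose from 124.1 and 99.4 to 244.5 and 240.2 (log2 difference 1.12, SE 0.20, adjusted p = 0.0035).

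Most formins did not pass the threshold, and the exceptions went in both directions. Of 13 genes 3 rose, 2 fell and 8 did not pass. Daam2, a formin linked to Wnt and planar polarity signalling, dropped from 6004 and 6505 to 1997 and 2642. This was a 2.70-fold fall (means 6254 ± 354 and 2319 ± 456, SD, n = 2; log2 difference -1.44, SE 0.13, limma adjusted p = 0.000198; chromosome 17, 49456022 to 49564459, GRCm38). Its paralog Daam1 did not follow, at 2631 and 3025 against 2946 and 3015. Fhod1, a formin of stress fibres, fell from 2462 and 2313 to 1438 and 1406 (log2 difference -0.75, SE 0.085, adjusted p = 0.000479), while Fhod3, best known from heart muscle, stayed level at 4760 and 4791 against 5163 and 4691.

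Among the formins that rose, Fmnl1, the leukocyte formin, went from 545.7 and 610.3 to 1124 and 1129 (log2 difference 0.96, SE 0.11, limma adjusted p = 0.000505). Fmnl2 and Fmnl3, its widespread relatives, overlapped between groups, with log2 differences of -0.12 and -0.02. Fmn1, a formin with known roles at cell junctions and in limb and kidney development, rose from 2472 and 2477 to 3370 and 3403 (log2 difference 0.45, SE 0.075, adjusted p = 0.00253), with replicates that hardly differed. Diaph3, a diaphanous formin with a part in cell division, rose from 279.7 and 237.6 to 355.0 and 439.0 (log2 difference 0.61, adjusted p = 0.0246). This call was lost without WT replicate 2 (0.115) and without KO replicate 2 (0.138). Of 15 cell cycle genes 2 rose, 2 fell and 11 did not pass, and their summed counts were 16626 and 15466 against 15291 and 20258; their part in the Diaph3 value was not tested.

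The remaining formins did not pass the threshold. Diaph1 read 4524 and 4656 against 4025 and 3925, just short of the threshold (log2 difference -0.21, limma adjusted p = 0.0508). It passed with a pseudocount of 5 (0.0494), with a higher filter (0.0478) and in edgeR (0.0435). Diaph2 overlapped between groups. Inf2, a formin that also severs filaments and is mutated in a glomerular disease, read 1616 and 1475 against 1834 and 1815 (log2 difference 0.24, adjusted p = 0.0609), and passed with scaling by total reads (0.0348). Fmn2, the formin of oocytes and neurons, was the scarcest member per transcript length, with normalized counts of 103.4 and 119.3 against 124.4 and 157.3.

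The cordon-bleu and spire group was the only role group in which calls were made and all were falls, 3 of 4. Cobll1, a relative of cordon-bleu, fell 3.42-fold, from 12610 and 13738 to 3996 and 3703 (means 13174 ± 797 and 3849 ± 208, SD, n = 2). Its log2 difference of -1.77 (SE 0.084) had the smallest adjusted p of the list (limma, 1.49e-05; chromosome 2, 65088339 to 65239398, GRCm38). Cobl itself, which shapes the brush border of epithelial cells, read 4963 and 5205 against 4424 and 3872, and Spire1 2433 and 2748 against 2097 and 2126. Their log2 differences of -0.30 and -0.29 (adjusted p = 0.0304 and 0.0328) were small and not stable. Cobl lost its call without WT replicate 1 (0.0651), WT replicate 2 (0.114) or KO replicate 2 (0.198), and Spire1 without WT replicate 2 (0.139), KO replicate 1 (0.124) or KO replicate 2 (0.0973). Both also lost it with no variance trend (0.103 and 0.0944), and Spire1 with scaling by total reads (0.0533). Spire2, the paralog of Spire1, overlapped at 480.7 and 541.7 against 514.8 and 454.1.

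**Figure D2:**
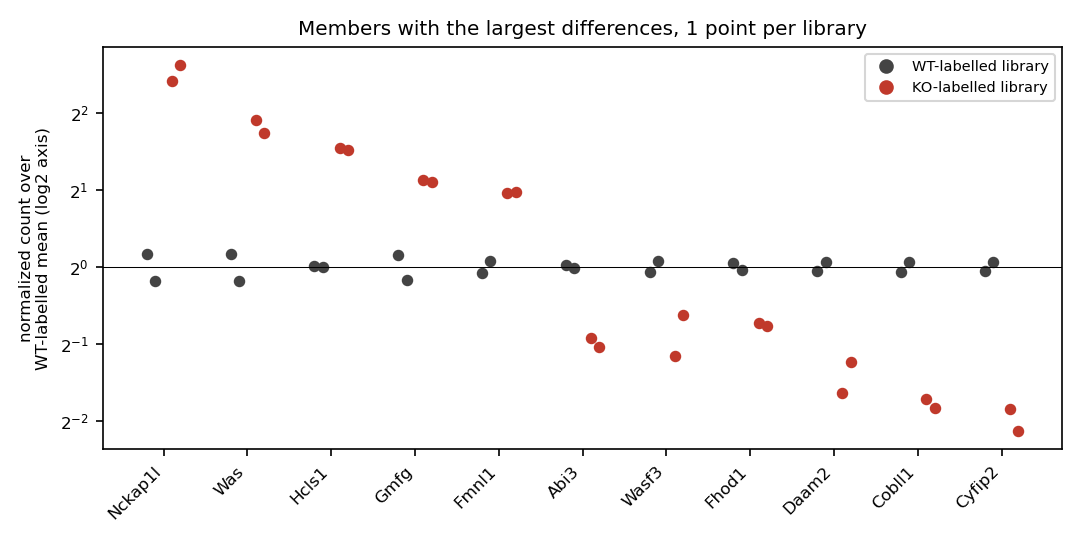
Normalized count of each library divided by the mean of the WT-labelled libraries (y axis, log2 scale) for the members with the largest log2 differences, 1 point per library. The groups are apart for each of these genes, from Nckap1l (354.6 and 278.3 against 1686 and 1941) to Cyfip2 (24828 and 26915 against 7213 and 5890), and the KO-labelled points of Wasf3 and Daam2 lie furthest from each other.

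Set side by side, the blood-lineage members and their widespread paralogs behaved differently. All 7 blood-lineage members passed the threshold, 6 of them higher and Abi3 lower, with a median log2 difference of 1.12. Of the 7 widespread paralogs 1, Cttn, rose, none fell and 6 did not pass, with a median of -0.03. Within each library the ratio of the pair cancels scaling. The log2 ratio of Nckap1l to Nckap1 moved from -5.03 and -5.22 to -2.71 and -2.48, a shift of 2.53. The ratio of Was to Wasl shifted by 2.00, from -6.36 and -6.6 to -4.42 and -4.54. Shifts of 1.23 for Gmfg to Gmfb, 1.08 for Fmnl1 to Fmnl2 and 1.07 for Hcls1 to Cttn followed, and Wipf1 to Wipf2 moved by 0.44. Abi3 to Abi1 shifted the other way, by -1.24.

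In each of the 7 pairs the groups did not overlap and the shift exceeded the gap between replicates, which was at most 0.34. Groups of single genes did not overlap for 78.5% of all genes tested, and no such share was computed for ratios. The exact two-sided permutation test gave p = 0.333 for every pair, 0.333 after Benjamini-Hochberg adjustment over the 7, and this is the smallest p that 2 libraries against 2 allow. In the same libraries all 20 macrophage and pan-leukocyte markers rose, with a median log2 difference of 2.42, and their summed normalized counts were 15884 to 16831 in the WT-labelled and 82965 to 83495 in the KO-labelled libraries. None of these markers was at 0 in any library. Cd14 rose 7.54-fold and C1qa, a complement gene of macrophages, 6.37-fold. Of the 7 blood-lineage members 1, Nckap1l, exceeded the marker median. Lymphocyte markers were scarce, at summed counts of 366.8 to 412.7 and 835.5 to 1049, with 4 of 10 tested higher and 1 lower. Cd4 held the largest counts in every library and rose from 141.8 and 116.3 to 566.3 and 702.8. The lower one was Trac, at 73.87 and 82.5 against 21.45 and 32.03. Neutrophil markers were scarce too, at summed counts of 165.0 to 191.1 and 279.9 to 359.9: of 8, 3 could be tested, of which Csf3r rose and 2 did not pass, and Elane, Ly6g, Mpo and Retnlg were each at 0 in at least 1 library. The part of leukocyte content in the rise of these members was not tested, and in bulk tissue more cells of a type and more RNA per cell cannot be told apart.

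**Figure D3:**
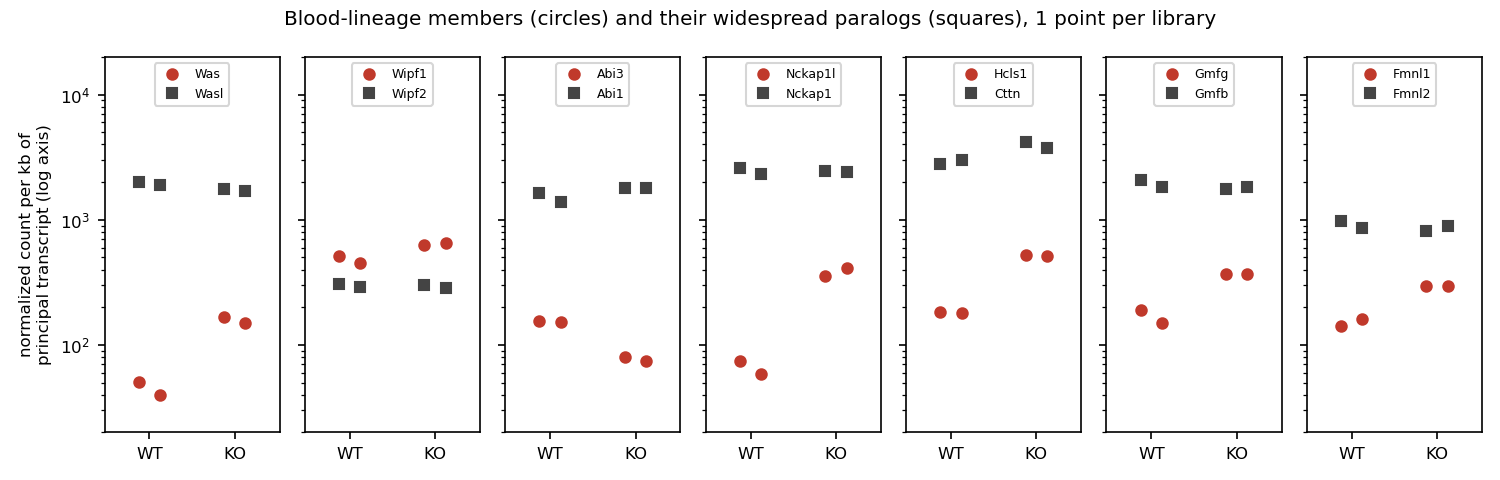
Normalized count per kilobase of the principal transcript (y axis, log scale) for the 7 pairs, 1 point per library, with blood-lineage members as circles and widespread paralogs as squares. Circles rise in the KO-labelled libraries in 6 pairs and fall for Abi3, and they remain under the squares except for Wipf1, which lies above Wipf2 in all 4 libraries.

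The make-up of several families therefore differed between groups, which was examined per length of the longest principal transcript (GENCODE M21) so that paralogs could be compared. In the CYFIP family, Cyfip2 went from 80.9% and 82.5% of the transcripts to 49.6% and 45.4%. Daam2 fell from 78.6% and 77.6% of the DAAM family to 52.2% and 58.6%, and Cobll1 from 73.9% and 74.7% of the cordon-bleu family to 50.2% and 51.6%. These 3 families were singled out after their values had been seen. In log2 terms the ratio of Cyfip2 to Cyfip1 shifted by -2.3, Daam2 to Daam1 by -1.52 and Cobll1 to Cobl by -1.48, each with groups apart (exact two-sided permutation p = 0.333, the smallest possible). The shares depend on the length used: with the union of all annotated exons Cyfip2 held 88.0% and 89.1% against 63.1% and 59.2%, so Cyfip2 then stayed the larger part in every library. With that length the KO-labelled values were 36.0% and 42.1% for Daam2 and 46.9% and 48.3% for Cobll1, each the smaller part.

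The blood-lineage paralogs remained the smaller part of most families. Nckap1l rose from 2.81% and 2.47% of the NCKAP transcripts per length to 12.6% and 14.5%. Was accounted for 2.43% and 2.05% and then 8.75% and 8.12% of the WASP family. Hcls1 had 6.08% and 5.67% and then 11.2% and 12.0% beside Cttn, and Gmfg 8.35% and 7.63% and then 17.4% and 16.7% beside Gmfb. With exon union lengths the shares of Gmfg were 3.37% and 3.06% and then 7.46% and 7.11%. Among the WAVE proteins Wasf2 held 77.8% to 84.3% in all 4 libraries.

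**Figure D4:**
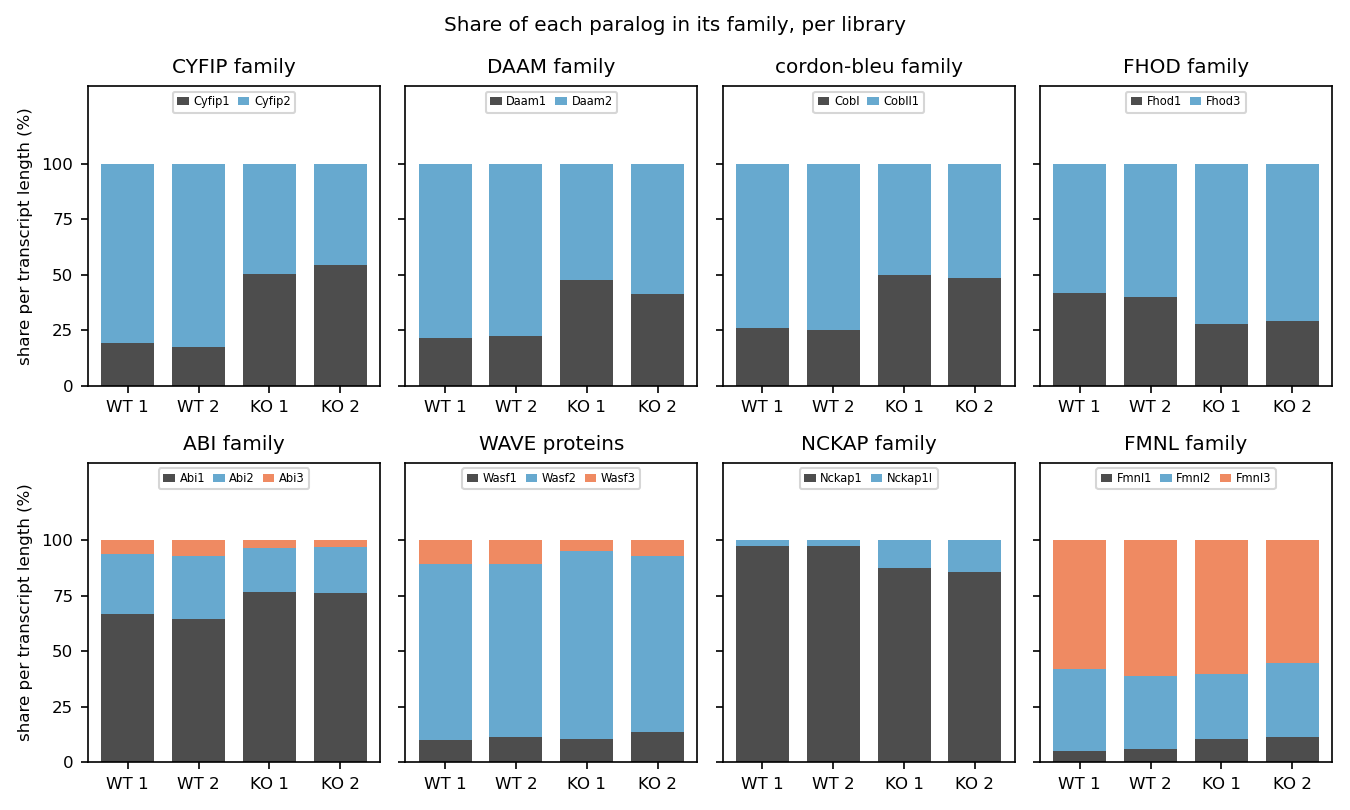
Share of each paralog in its family per transcript length (y axis, percent) in each of the 4 libraries, as stacked bars, 1 panel per family. Cyfip2, Daam2 and Cobll1 make up 73.9% to 82.5% of their families in the WT-labelled libraries and 45.4% to 58.6% in the KO-labelled ones.

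Markers of the tubule and of the vessel wall are given beside the falls of Cyfip2, Cobll1 and Daam2. Of 15 tubule epithelial markers 8 fell, 2 rose and 5 did not pass, with a median log2 difference of -1.14 and summed counts of 593126 to 622799 against 284041 to 377997. Aqp3, a water channel of the collecting duct, fell 7.63-fold and Kcnj1, a potassium channel, 5.59-fold. The general epithelial genes Epcam and Cdh1 stayed short of the threshold (log2 differences 0.22 and -0.11), and the keratin genes Krt8 and Krt18 rose 2.79-fold and 4.03-fold. All 10 endothelial markers fell (median -1.29, summed counts 95955 to 97823 against 32993 to 34791). Of 10 stromal markers 7 rose, none fell and 3 did not pass (median 1.39, summed counts 198883 to 209146 against 504816 to 585090). None of these markers was at 0 in any library, and their part in the members' falls was not tested.

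Per transcript length the members spanned a 225-fold range in the WT-labelled medulla. Cyfip2 (3890 normalized counts per kilobase), Brk1 (3690), Cttn (2890), Cobll1 (2620), Nckap1 (2460), Wasl (1960) and Gmfb (1950) led the order, and Fmn2 (17.3) closed it. The replicate values of Cyfip2, 3730 and 4040, overlapped those of Brk1, 3420 and 3960, so the first 2 places are not separated. Neither are those of Cobll1 (2510 and 2730) and Nckap1 (2590 and 2320), nor those of Wasl (2020 and 1890) and Gmfb (2070 and 1830). In the KO-labelled medulla Brk1 (4860), Cttn (3970) and Nckap1 (2440) led, with Cyfip2 at 984 and Cobll1 at 765. Among formins the levels were highest for Daam2 (1720) and Fmnl3 (1590) in the WT-labelled and for Fmnl3 (1570) in the KO-labelled libraries, where Daam2 was at 636. The replicate values of Fmnl3 in the WT-labelled libraries, 1560 and 1610, lay under those of Daam2, 1650 and 1780. These orders depend on the length: per exon union Brk1 (3690) and Cyfip2 (3640) still overlapped in the WT-labelled libraries, but Fmnl3 (1400) lay above Daam2 (640).

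For many of the widely used activators the data bound the size of any difference. Of the 22 members that did not pass, 19 had a 95% interval within 0.5 of 0 on the log2 scale, among them Wasl, Wasf2, Nckap1, Abi1, Washc2, Washc4, Jmy, Diaph1, Daam1, Fmnl2, Fmnl3 and Fhod3. The 3 wider ones were the low-count genes Wipf3 (-0.27 to 0.51), Wasf1 (-0.36 to 0.54) and Fmn2 (-0.20 to 0.87). These intervals are for single genes and are not adjusted for their number.

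The rest of the pathway was read from other genes above and below the activators. Of the 10 Arp2/3 subunits, which the activators switch on, 7 rose, none fell and 3 did not pass, with a median log2 difference of 0.59. Of all genes tested 26.3% were higher and 24.9% lower. The 7 include the targeted gene Actr3, whose count over the whole gene does not check the deletion. Arpc1b, a subunit abundant in blood cells, had 3204 and 3119 against 9735 and 8821, and its paralog Arpc1a 3819 and 4272 against 4632 and 4227 (log2 differences 1.55 and 0.13).

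Vav1, Dock2 and Rac2, upstream regulators of actin that are used mainly by blood cells, rose 5.38-fold, 4.20-fold and 4.54-fold alongside the leukocyte markers given above. Rac1, the GTPase that binds the WAVE complex in most cells, did not pass (log2 difference 0.16, limma adjusted p = 0.116). Cdc42, the activator of N-WASP, rose from 18214 and 17254 to 23074 and 22375 (log2 difference 0.36, adjusted p = 0.0091). Dock8, an exchange factor for Cdc42, fell from 5018 and 5923 to 3020 and 2705 (log2 difference -0.93, adjusted p = 0.000464).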

How the data were processed

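RNA of the medulla from 2 WT-labelled and 2 KO-labelled mice was sequenced, with group and number of each read from its title. Nothing in the labels ties same-numbered libraries together or names a batch, and p-values measure the spread between these libraries. In the table the authors deposited, each signal value is a gene's read count over its library's size factor, as the values themselves show: they are whole multiples of 1 step per column (100% whole within 0.001 of a read or, for the highest counts, 1e-06 of the count), while at most 0.2% of the values above 0 in a column are whole as deposited. The tools named in the submitters' processing notes are DESeq2 2.11.40.7, featureCounts 2.0.1, HISAT2 2.2.1 and fastp 0.20.1, and the builds mm10 and GRCm38. Annotation, strand setting and handling of multi-mapping reads: not given in the sources used here, so counts of overlapping genes and near-identical paralogs are uncertain.

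Entrez IDs were matched to symbols in a RefSeq table of GRCm38.p6 (25275 of 27179). The main test, two-sided, was the trended limma fit (limma 3.58.1, R 4.3.3) of log2(value + 1) for 16253 genes with a mean of at least 10, adjusted by the Benjamini-Hochberg method at 0.05. On this scale changes of low genes come out too small. Each fold is a ratio of group means. The fit had 2 residual degrees of freedom, 6.96 after pooling across genes. edgeR 4.0.16 and DESeq2 1.42.0 were run on the recovered reads as alternatives and called 4190 higher and 4113 lower, and 4006 higher and 3817 lower, next to other pseudocounts, filters, scalings and variance models, a replicate block and leaving out each library. The steps were tested on simulated data. Lengths for levels per kilobase are those of the longest principal protein-coding transcript, and the exon union was an alternative chosen after seeing the data. The members, pairs and lists were chosen with earlier results of these data known. All members were named, and of each other list up to 5 genes with the smallest adjusted p; the few others named from those lists were chosen after their values were seen, for their place in the pathway or as defining markers. The counts over 1 further list are not reported here. Promoter windows are RefSeq's, on GRCm38.p6.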

Additional observations from a re-analysis of the deposited data

How the results depend on the processing

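Of the 25 called members 14 kept their direction and their call under all 16 alternatives, and no member that was called in any setting changed sign. The other 11, each with a log2 difference under 0.9 in size, lost the call in at least 1, as given beside them. Members called higher numbered 15 and fell to 9 with no variance trend, and those called lower stayed between 8 and 11 across the settings that kept all libraries. Leaving out 1 library gave 9 to 13 higher (9 without KO replicate 1) and 6 to 9 lower (6 without WT replicate 2), with the spread of a lone library borrowed from the other arm. edgeR called 15 higher and 11 lower and shared all 25 calls, and DESeq2 shared all 25. The 7 blood-lineage members kept 6 rises and 1 fall in every setting, and the pair shifts kept their sign in every setting run. With scaling by total reads the median log2 difference of all genes was 0.0467, against 0.00291 in the main fit.

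The replicate numbers were not used as pairs: deviations of same-numbered libraries correlated at -0.0564 across genes. With a replicate block 13 members were called higher and 8 lower, and the calls of Washc1, Washc3, Cobl and Spire1 were lost; the block leaves fewer degrees of freedom. With exon union lengths 56 of the 70 family shares moved by more than the spread between replicates. Fmn2, Was and Gmfg had the fewest reads, so their differences carry the widest intervals.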
